A study of Mus musculus with 32 samples.

Results

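Genes named as the opposite-strand partner of another gene were examined in mouse liver RNA-seq. A gene symbol that ends in os, or in os and 1 digit, was taken as an opposite-strand row when the part of the symbol before os was itself a gene of the table. This rule gave 177 opposite-strand rows of 21880 rows in all, with 153 distinct partner genes, since 18 partners had several opposite-strand rows. A further 31 symbols with this ending had no partner row and were left out. The rule used names alone, and each of the 177 rows lay on the strand opposite to its partner in the annotation.

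The study compared the livers of WT mice with those of L-Dnm1l–KO, DKO and TKO mice at 2 and 6 months (2M and 6M), with 4 libraries for each of the 8 groups and 32 in all. L-Dnm1l–KO livers lack Dnm1l, which encodes the mitochondrial fission protein DRP1, DKO livers lack Mfn1 and Mfn2, which encode the fusion proteins mitofusin 1 and 2, and TKO livers lack all of these genes. Floxed alleles on a C57BL/6/129 background were deleted by Cre driven from the albumin promoter, which is active in hepatocytes, after crosses with C57BL/6J Cre mice. The paper refers to matched WT mice. The WT libraries are titled as WT of the Drp1 line at both ages, and no WT of the DKO or TKO lines is labelled. The values examined are the authors' mean normalized counts, 1 value per gene, averaged over all 32 libraries and so over every genotype and age. No level per genotype or per mouse was used here, the depth of each library is unknown, and no spread between libraries is given with the mean. Differences between rows are for that reason described by their size, without a test.

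An opposite-strand, or natural antisense, transcript is read from the DNA strand that faces another gene. It can start near the partner's own start and run away from it, lie inside an intron of the partner, or cross the partner's exons, in which case the RNAs of the pair carry complementary bases. Some such transcripts act on the chromatin, splicing or stability of the partner, and for many no function is known. A library that marks strand can place a read from complementary bases on 1 row of the pair only, so the count of each row depends on how strand was set when reads were counted.

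A stretch of shared bases is shown for 5 pairs, because the results turn on rows that face the partner's coding exons. The stretch holds all 141 shared exon bases of Dhx58os. It holds 48 of 188 for Sardhos, 138 of 337 for Rapgef4os2, 119 of 146 for Adap2os and 144 of 412 for Hopxos. The other shared bases are not shown. Each opposite-strand sequence is written 5′ to 3′ from its own transcript, with capitals for the bases that face a coding exon of the partner and lower case for 10 flanking bases on each side. The partner's line gives the same bases read on the partner's strand. Sequences and positions are from GENCODE M21 on GRCm38. The first pair is Sardhos, on the plus strand, and Sardh, which encodes the mitochondrial enzyme sarcosine dehydrogenase, at chr2:27189522-27189569.
Sardhos: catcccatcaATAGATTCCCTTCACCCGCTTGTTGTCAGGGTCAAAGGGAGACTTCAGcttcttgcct
Sardh: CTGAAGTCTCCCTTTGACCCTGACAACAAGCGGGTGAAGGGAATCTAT
Rapgef4os2, on the minus strand, faces an exon of Rapgef4, which encodes a cAMP-activated exchange factor for Rap GTPases, at chr2:72226475-72226612.
Rapgef4os2: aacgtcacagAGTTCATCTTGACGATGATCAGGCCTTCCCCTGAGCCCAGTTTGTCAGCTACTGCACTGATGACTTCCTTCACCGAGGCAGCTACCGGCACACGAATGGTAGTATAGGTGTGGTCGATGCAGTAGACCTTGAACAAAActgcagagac
Rapgef4: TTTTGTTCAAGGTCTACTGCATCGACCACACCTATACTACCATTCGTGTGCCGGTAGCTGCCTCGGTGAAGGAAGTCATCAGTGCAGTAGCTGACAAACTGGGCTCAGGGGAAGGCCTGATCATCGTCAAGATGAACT
Adap2os, on the minus strand, faces Adap2, which encodes a GTPase-activating protein for Arf GTPases, at chr11:80177156-80177274.
Adap2os: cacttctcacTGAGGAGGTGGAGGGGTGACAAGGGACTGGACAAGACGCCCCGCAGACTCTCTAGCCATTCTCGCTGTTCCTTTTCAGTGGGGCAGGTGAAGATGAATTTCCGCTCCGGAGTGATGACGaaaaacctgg
Adap2: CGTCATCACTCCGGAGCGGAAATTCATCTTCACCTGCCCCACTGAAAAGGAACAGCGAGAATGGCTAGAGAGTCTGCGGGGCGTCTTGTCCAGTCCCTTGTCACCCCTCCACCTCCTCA
Hopxos, on the plus strand, faces Hopx, which encodes a small homeodomain protein that does not bind DNA, at chr5:77094866-77095009, where the capitals include the complement of the partner's start codon.
Hopxos: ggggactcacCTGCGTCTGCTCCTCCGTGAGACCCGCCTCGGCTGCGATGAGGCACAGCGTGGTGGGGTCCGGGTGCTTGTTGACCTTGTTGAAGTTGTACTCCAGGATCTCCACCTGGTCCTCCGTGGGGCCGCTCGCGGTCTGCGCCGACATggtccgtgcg
Hopx: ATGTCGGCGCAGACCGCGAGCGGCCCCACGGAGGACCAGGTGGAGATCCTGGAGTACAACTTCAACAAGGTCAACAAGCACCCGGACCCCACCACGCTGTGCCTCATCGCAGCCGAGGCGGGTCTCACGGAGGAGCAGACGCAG
Dhx58os, on the plus strand, faces Dhx58, which encodes LGP2, a RIG-I-like sensor of viral RNA, at chr11:100697026-100697166.
Dhx58os: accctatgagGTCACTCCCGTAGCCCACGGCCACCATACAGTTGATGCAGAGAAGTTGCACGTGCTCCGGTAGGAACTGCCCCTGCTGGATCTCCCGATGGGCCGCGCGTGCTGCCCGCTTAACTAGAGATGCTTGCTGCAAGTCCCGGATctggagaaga
Dhx58: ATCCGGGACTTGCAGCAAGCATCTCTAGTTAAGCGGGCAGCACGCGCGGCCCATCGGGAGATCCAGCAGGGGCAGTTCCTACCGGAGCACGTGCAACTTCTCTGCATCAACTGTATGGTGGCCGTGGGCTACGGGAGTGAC

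The label of the tissue was checked first. All 8 hepatocyte markers were in the table, at mean normalized counts from 80.2 (Apoc3) to 4958 (Alb), and Alb, which encodes serum albumin, ranked 26 of all rows. Markers of other liver cells ran from 0.586 to 121 for 5 macrophage genes, 0.261 to 8.20 for 4 stellate cell genes, 0.625 to 4.36 for 4 endothelial genes and 0.0613 to 0.420 for 4 cholangiocyte genes. Of the macrophage genes, only Csf1r (121) was above 4, and it was the 1 gene of these lists above the lowest hepatocyte marker. In bulk liver, fewer cells of a type and less RNA per cell cannot be told apart. Marker counts also depend on how strand was set in the counting, which is not given in the sources used here. The part of the strand setting in the marker levels was not tested. The highest antisense gene outside the opposite-strand rows stood at 29587, above Alb.

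The opposite-strand rows were among the better counted rows of the table. Their mean normalized counts ran from 0.0497 to 2591 with a median of 3.35, while the median over all rows was 1.52. A mean of at least 10 was reached by 71 of 177 opposite-strand rows (40.1%) and by 20.2% of all rows, and 22 opposite-strand rows reached 100. The 153 partners, all protein-coding, had a median of 2.64, and 38 of them reached 10. Together the opposite-strand rows held 1.11% of the summed means, which came to 900450 over all rows. They were not set apart from the other antisense genes of the table, 1901 rows with a median of 2.85, of which 36.3% reached 10.

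Levels were also set per kilobase (kb) of exon, to allow for gene length. The length is the union over all transcripts of a gene, so it can exceed any 1 transcript and lower the value per kb. On this measure the opposite-strand rows had a median of 2.43 mean normalized counts and their partners 0.427. The gap was not particular to these pairs, since other antisense rows had a median of 2.72 per kb and other coding rows 0.508. Among the 156 pairs whose means summed to at least 1, the opposite-strand row was above its partner in 87 (55.8%) by mean normalized count and in 124 (79.5%) per kb. The median ratio per kb was 6.66-fold in favour of the opposite-strand row. It was over 10-fold in 71 pairs, and in 14 pairs the partner was over 10-fold higher.

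**Figure D1:**
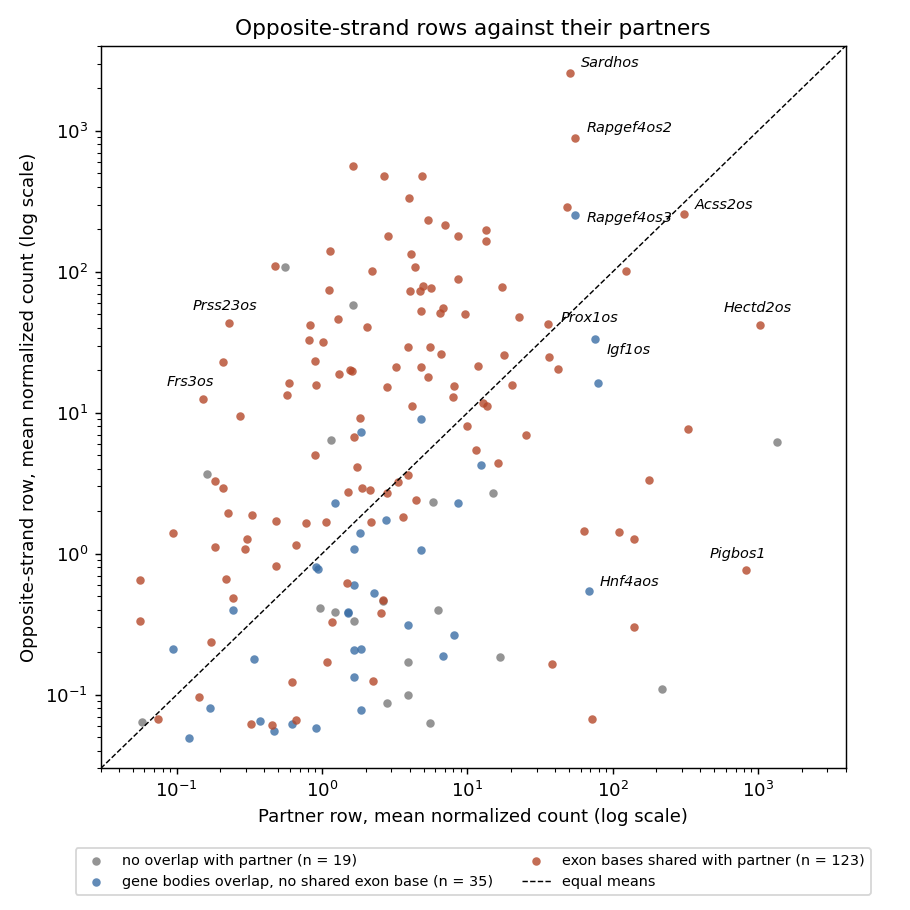
Mean normalized count of each opposite-strand row (vertical axis, log scale) against that of its partner (horizontal axis, log scale), 1 point per pair for 177 pairs, coloured by position; the dashed line marks equal means. Pairs that share exon bases lie mostly above the line (79 of the 112 whose means sum to at least 1), and Hectd2os and Pigbos1 lie far below it.

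Level followed position. The 123 opposite-strand rows that shared at least 1 exon base with the partner had a median mean normalized count of 12.9, and 66 of them reached 10. The 35 rows that overlapped the partner's gene body without sharing an exon base had a median of 0.401, with 3 reaching 10, and the 19 rows that did not overlap the partner had a median of 0.402, with 2 reaching 10. The number of shared exon bases ordered the medians in the same way, at 0.401 for no base (54 rows), 2.71 for fewer than 100 bases (25 rows), 17.9 for at least 100 but fewer than 300 (47 rows) and 20.1 for at least 300 (51 rows). The last 2 medians are close to each other against the range within each class.

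The kind of exon that was faced also went with level. Rows that faced coding bases of the partner (81 rows) had a median of 15.9, and rows that faced only its noncoding exon bases (42 rows) had a median of 3.80. The 21 rows that faced exons of another coding gene, 17 of which faced the partner as well, had a median of 51.4, and 18 of them reached 10. The 50 rows that faced no coding gene's exon on the other strand had a median of 0.384. Only 3 of these 50 reached 10, namely Rapgef4os3 (254), Igf1os (33.3) and Egfros (16.4).

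The same split was present in antisense genes that carry other names. Of the 1901 other antisense rows, the 1271 that faced a coding gene's exon had a median of 10.9 and 51.2% reached 10, and the 630 that faced none had a median of 0.438 and 6.35% reached 10. The 1271 rows held 28.6% of the summed means of the whole table. How strand was set in the counting is not given in the sources used here, and whether reads of a row that faces the exon of a coding gene came from that row's own transcript or from the gene on the other strand was not tested.

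**Figure D2:**
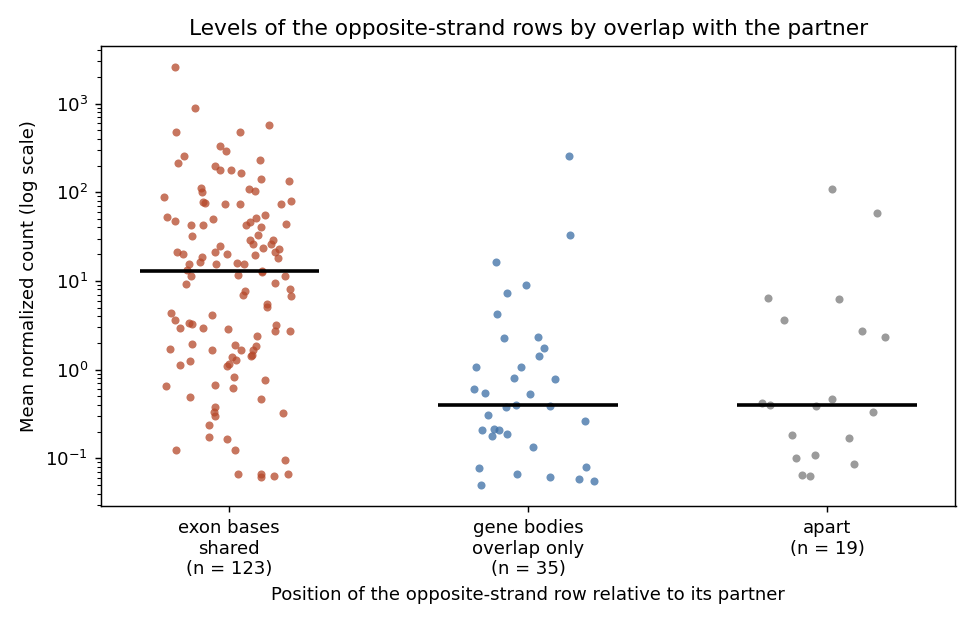
Mean normalized count (vertical axis, log scale) of the 177 opposite-strand rows by position relative to the partner, 1 point per row with horizontal scatter for display; black bars are medians. The bar stands at 12.9 for rows that share exon bases, 0.401 for rows that overlap the gene body only and 0.402 for rows apart from the partner.

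The pairs were also divided by the distance between their starts. In 28 pairs the starts lay within 1000 bases of each other and the gene bodies overlapped, and their opposite-strand rows had a median of 13.3. In 10 pairs the starts were as close but the genes ran apart without overlap, the arrangement of a shared bidirectional promoter, and the median was 0.252. The 52 rows that overlapped the partner in other ways, with starts over 1000 bases away, had a median of 18.3, and the 9 rows apart from the partner at such a distance had a median of 2.71. Rows lying wholly inside the partner with starts as far away (78) had a median of 2.12. Close starts therefore did not go with one level. The 1 row of the 10 divergent pairs to reach 10 was Brip1os (109), which shared no exon base with Brip1 but faced 800 exon bases of Med13 and 512 of Ints2.

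The partners were read in 6 role groups, and 59 of the 153 partners belong to none of them. Partners that act in mitochondria come first, and 7 of their 8 opposite-strand rows shared exon bases with the partner. The 8 rows in this group had a median mean normalized count of 115 against 4.57 for the partners, and 6 of 8 reached 10. Sardhos was the highest of all 177 rows at 2591, rank 50 in the table, while Sardh stood at 50.8. Per kb of exon, Sardhos had 9777 mean normalized counts and Sardh 9.35, a 1046-fold difference. Sardhos spans chr2:27189382-27234710, lies inside Sardh and shares 188 exon bases with it, which are 70.9% of its own exon length.

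Rbfaos stood at 566 and its partner Rbfa, which encodes a mitochondrial ribosome-binding factor, at 1.63, so that the row was 189-fold higher per kb. Tomm6os stood at 475 against 2.65 for Tomm6, a small subunit of the import channel of the outer membrane. Ppifos stood at 178 against 2.86 for Ppif, which encodes cyclophilin D, the regulator of the permeability transition pore, and shared 921 bases or 79.5% of its exons with Ppif. In each of these 3 pairs the coding gene, which many tissues use, was the lower row. Tomm6os also faced 1221 exon bases of Prickle4 and 958 of Gm21981.

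Mccc1os (51.4) exceeded Mccc1 (6.47), which encodes a subunit of the leucine-degrading enzyme methylcrotonyl-CoA carboxylase. Taco1os (50.2) exceeded Taco1 (9.66), a translational activator of a cytochrome oxidase subunit. The remaining rows of the group were low, Atad3aos at 0.402 against 6.27 for Atad3a and Mipepos at 0.124 against 2.23 for Mipep. These also differed in position, since Atad3aos did not overlap its partner and Mipepos shared 9 bases with it.

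Among enzymes, secreted proteins and transporters outside the mitochondria, 9 of 17 opposite-strand rows reached 10, with a median of 22.9. Acss2os (256) and Acss2 (311), the nucleocytosolic acetyl-CoA synthetase, both had means above 100. Per kb the order turned, with 406 for Acss2os and 30.6 for Acss2. Nudt12os stood at 214 and Nudt12, a peroxisomal hydrolase of NADH, at 7.01. Notumos stood at 198 and Notum, a secreted enzyme that inactivates Wnt proteins and marks pericentral hepatocytes, at 13.5.

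Uckl1os stood at 141 against 1.14 for Uckl1, a uridine-cytidine kinase-like protein of pyrimidine salvage, which made it 226-fold higher per kb. Dhrs13os stood at 110 against 0.473 for Dhrs13, a short-chain dehydrogenase, and faced 208 coding bases of its partner and 528 exon bases of Phf12. Scpep1os (79.0) and Man2c1os (78.4) also exceeded Scpep1 (4.95), a serine carboxypeptidase, and Man2c1 (17.3), a cytosolic mannosidase. Prss23os stood at 43.5 against 0.228 for the serine protease gene Prss23 and had 451-fold more counts per kb. Slc13a2os stood at 22.9 and the dicarboxylate transporter gene Slc13a2 at 0.209. In all of these pairs the opposite-strand row faced coding exons of the partner.

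Signalling proteins had 21 opposite-strand rows for 16 partners, and 12 rows reached 10. Rapgef4 had the highest pair of rows, Rapgef4os2 at 891 and Rapgef4os3 at 254, while Rapgef4 itself stood at 55.4. Rapgef4os2 shared 337 coding bases with Rapgef4, and Rapgef4os3, at chr2:72244965-72248975, shared none and faced no other coding exon. Rapgef4os3 was nevertheless 8.78-fold above Rapgef4 per kb. Rab10os stood at 290 against 48.7 for Rab10, a small GTPase of vesicle transport, and was 3.41-fold higher per kb.

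Adap2os (233) exceeded Adap2 (5.39) and faced 146 of its coding bases. Prkag2os2 (52.7) and Prkag2os1 (21.2) exceeded Prkag2 (4.804), which encodes a regulatory subunit of AMP-activated kinase, and Rptoros (21.1) exceeded Rptor (3.25), the raptor subunit of mTORC1. Frs3os stood at 12.6 and Frs3, an adaptor of FGF receptors, at 0.151. By mean normalized count, Igf1os stood at 33.3 against 76.1 for Igf1, a growth factor that hepatocytes secrete, and Egfros at 16.4 against 78.7 for Egfr, the receptor of epidermal growth factor.

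Igf1os and Egfros shared no exon base with their partners and faced no other coding exon. Per kb Igf1os was 1.66-fold above Igf1 and Egfros was 1.72-fold below Egfr. Arf4os (24.96) lay below Arf4 (36.4), a small GTPase of the Golgi, by mean normalized count and was 4.37-fold above it per kb.

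**Figure D3:**
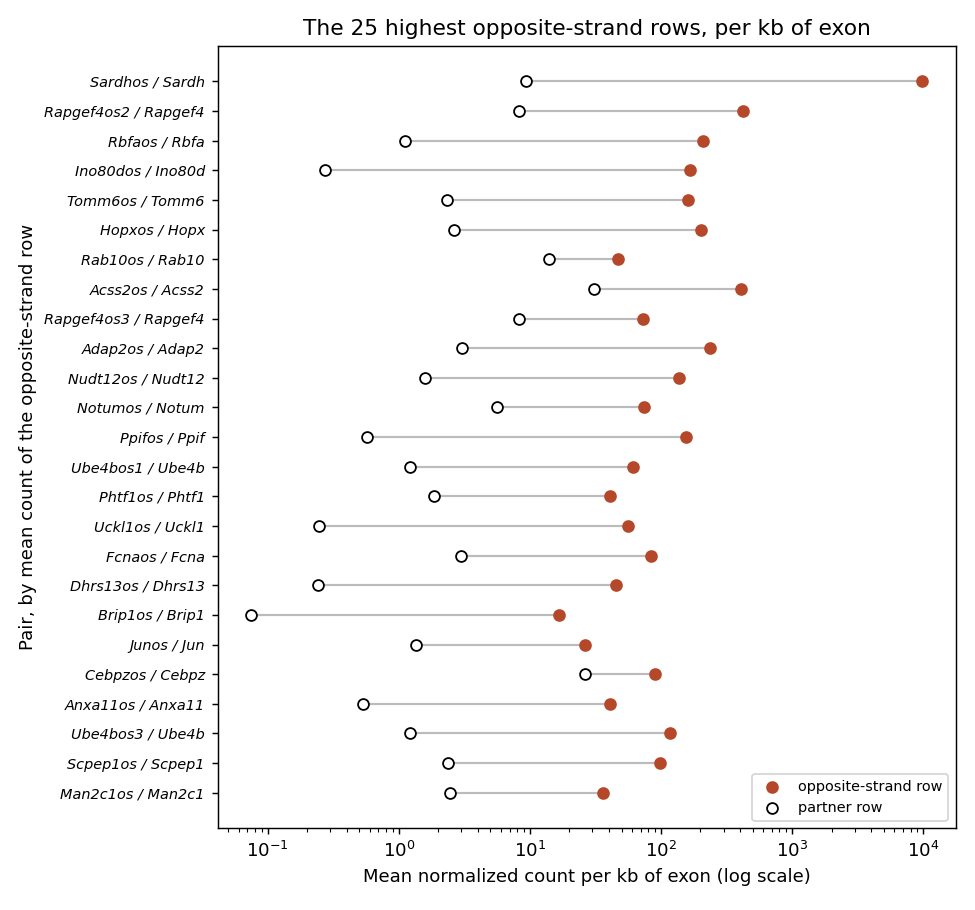
Mean normalized count per kb of exon (horizontal axis, log scale) for the 25 opposite-strand rows with the highest mean normalized count (filled) and their partners (open), 1 pair per line. The pairs were picked by the level of the opposite-strand row, which favours that row; it lies to the right of its partner in each of the 25, against 124 of all 156 pairs whose means sum to at least 1, from 3.41-fold for Rab10os to 1046-fold for Sardhos.

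Transcription factors and chromatin proteins formed the largest group, with 36 partners and 44 opposite-strand rows, and were split. A mean of 10 was reached by 15 of the 44 rows, and the median was 2.09, below that of the 36 partners (5.12). Per kb, however, the row was above its partner in 30 of the 40 pairs whose means summed to at least 1, against 18 of 40 by mean normalized count. Ino80dos stood at 482 against 4.89 for Ino80d, a subunit of the INO80 chromatin remodeller, and shared 431 noncoding exon bases with it. It also faced 489 exon bases of Ndufs1, a subunit of respiratory complex I, whose own row stood at 13.3. Hopxos stood at 333 against 3.97 for Hopx.

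Junos (108) exceeded Jun (4.34), the AP-1 subunit, and faced only its noncoding exon bases. Kdm6bos (76.3) exceeded Kdm6b (5.58), a histone demethylase, and faced 286 of its coding bases. Hand2os1 (74.4), read from the other side of the gene for the developmental factor HAND2, exceeded Hand2 (1.11), but its exons are long and its level per kb was 5.79. Rsf1os2 (55.2) and Tbx3os1 (29.3) exceeded Rsf1 (6.79), a chromatin remodelling factor, and Tbx3 (5.54), a T-box factor. Prox1os stood at 42.6 and Prox1, a homeobox factor of hepatocytes and lymphatic endothelium, at 35.9. Prox1os spans chr1:190170296-190217276, starts 418 bases from Prox1, shares 133 noncoding exon bases with it and was 12.0-fold higher per kb.

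The hepatocyte factor HNF4A had a low opposite-strand row. Hnf4aos stood at 0.543 and Hnf4a at 68.1, and per kb the row was 24.8-fold lower. Hnf4aos shared no exon base with Hnf4a.

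The 8 partners listed for immunity and cell death had low means and mostly higher opposite-strand rows. The list was chosen with earlier results of these data known and need not be complete. The 8 rows had a median of 36.4 and the 8 partners a median of 1.33, and the row was above its partner per kb in 7 of the 7 pairs whose means summed to at least 1. Of the 8 rows, 7 shared exon bases with the partner. Among all pairs that do so and whose means summed to at least 1, the row was above its partner per kb in 86.6%. The share was 80.8% for pairs that overlap by gene body only, 33.3% for pairs apart and 79.5% for all pairs. Fcnaos stood at 135 against 4.07 for Fcna, the plasma lectin ficolin A, which liver macrophages make, and also faced 399 exon bases of Ccdc183. Dhx58os stood at 42.2 against 0.823 for Dhx58, and Faddos at 40.8 against 2.03 for Fadd, the adaptor of death receptors. Slfn5os stood at 31.97 against 1.02 for Slfn5, an interferon-induced gene.

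Dhx58os, Faddos and Slfn5os faced 141, 239 and 559 coding bases of their partners. Tnfsf13os stood at 16.3 against 0.588 for Tnfsf13, which encodes the B cell factor APRIL, and Gimap1os at 11.2 against 4.15 for Gimap1, a lymphocyte GTPase. Cd55os stood at 57.7 against 1.63 for Cd55, a complement regulator, from which it lay apart, and faced 145 exon bases of the neighbouring paralogue Cd55b. Il1bos (0.0612) and Il1b (0.450), the gene of the cytokine interleukin 1 beta, were both under 1.

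A list of 9 partners of ubiquitin, proteostasis and cilia had 12 opposite-strand rows, of which 5 reached 10. The list is not complete, since Hectd2 and Spag17, whose rows lay below them, have such roles and are not in it. Ube4bos1 (178) and Ube4bos3 (88.5) exceeded Ube4b (8.67), a ubiquitin chain assembly factor, and faced 452 and 104 of its coding bases. Ube4bos2, which shared no exon base with Ube4b, stood at 2.28. Usp46os2 (23.3) exceeded the deubiquitinase gene Usp46 (0.889), Appbp2os (15.3) exceeded Appbp2 (2.81), a substrate receptor of a cullin ligase, and Ift88os (13.4) exceeded Ift88 (0.572), which is needed to build cilia.

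Partners with several opposite-strand rows show how far rows of 1 locus differ. The 18 such partners had 42 rows, and the highest row of a partner exceeded the lowest by 1.21-fold for Plxna4 to 463-fold for Tbx3. Tbx3os1 (29.3) shared 115 exon bases with Tbx3 and Tbx3os2 (0.0632) shared none. Rsf1os2 (55.2) shared 164 and Rsf1os1 (0.188) none, a 293-fold difference in mean normalized count.

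The highest row shared exon bases with the partner in 16 of the 18 loci. In the other 2, Bcas3 (rows at 7.33 and 0.212) and Pitpnm2 (9.07 and 1.07), neither row shared any. The order by shared bases was not strict. Chn1os1 (0.0659) shared 533 bases with Chn1 and was below Chn1os3 (1.16), which shared 220. Arhgap27os1 (29.2), with 424 noncoding exon bases shared with Arhgap27, a gene of a GTPase-activating protein, was above Arhgap27os2 (3.61), with 1055, and Arhgap27os3 (0.311), with none. Sox5, which encodes an SRY-related factor, had 5 rows, of which only Sox5os1 shared exon bases, and these rows stood at 6.73, 1.08, 0.596, 0.207 and 0.133.

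**Figure D4:**
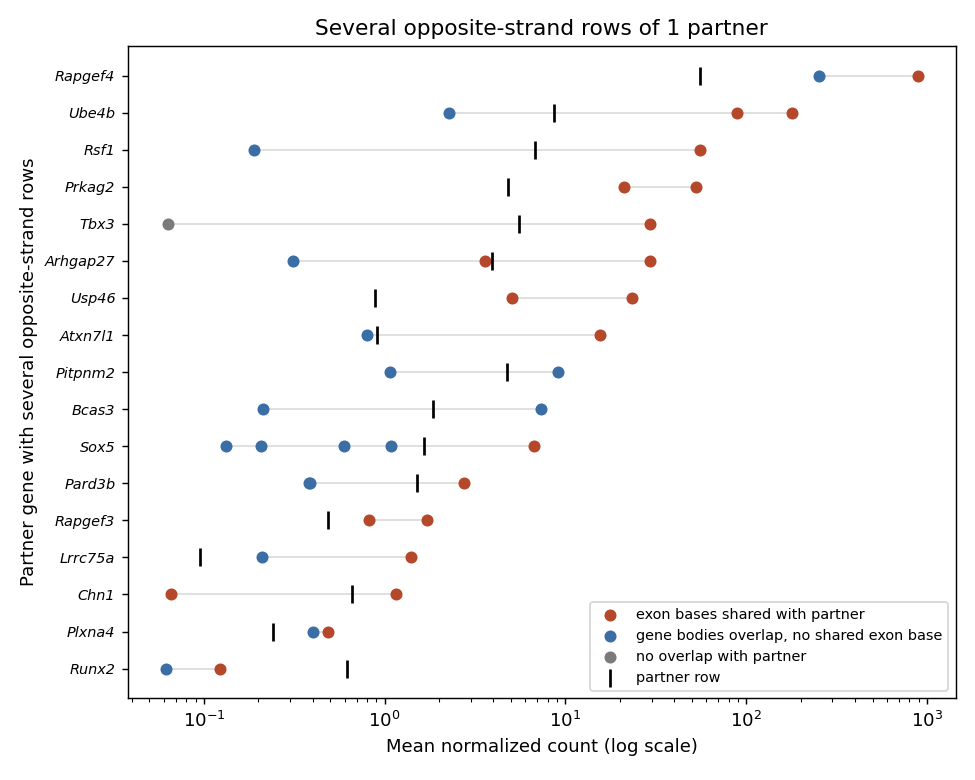
Mean normalized count (horizontal axis, log scale) of each opposite-strand row of 17 of the 18 partners with several such rows, 1 partner per line; points are coloured by position and the black tick is the partner. The highest point shares exon bases with the partner at Rapgef4, Ube4b, Rsf1, Tbx3 and Sox5 among others, and does not at Bcas3 and Pitpnm2.

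A smaller set of loci had the opposite order. In 14 pairs the partner exceeded the opposite-strand row more than 10-fold per kb. Pigb, a mannosyltransferase of GPI anchor synthesis, stood at 827 and Pigbos1 at 0.764. Mettl5, a methyltransferase of ribosomal RNA, stood at 217 and Mettl5os at 0.110, a 540-fold difference per kb that rests on a row with few reads. Zfp652, a zinc finger gene, stood at 72.3 and Zfp652os at 0.0672.

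The partners with the highest means mostly faced a coding gene themselves. Of the 10 partners with a mean of at least 100, 8 faced exons of some coding gene read from the other strand. Pigb faced 2170 exon bases of Ccpg1. Mettl5 faced 169 bases of Ssb, and Zfp335 (110) faced 1107 of Pcif1. Wdr83 (328) faced 539 bases of Wdr83os and 128 of Dhps, and Acss2 faced 395 bases of Gss and 197 of Ggt7. Hectd2 and Ctcfl were the other 2 of the 10.

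Over all partners, the 21 that faced a coding gene's exon had a median mean normalized count of 41.8, and the 105 that faced only noncoding exons had a median of 2.15. The 27 partners that faced no exon had a median of 1.85. Coding partners and opposite-strand rows thus differed by the same property of position. Its part in these levels was not tested.

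Hectd2, a HECT-type ubiquitin ligase gene, stood at 1024 and Hectd2os at 42.2, although Hectd2os shared 1834 exon bases with it, 116 of them coding. Ctcfl, a testis paralogue of the insulator gene Ctcf, stood at 178 and Ctcflos at 3.35, with 171 coding bases shared. Spag17, a gene of the cilium's central pair, stood at 38.4 and Spag17os at 0.166, with 516 coding bases shared, and Spag17 also faced 820 exon bases of the coding gene Wdr3. Pairs that share coding bases and whose means summed to at least 1 numbered 76. The row was below its partner per kb in only 5 of them, these 3 with Zfp85os (2.84 against 2.15) and Lef1os1 (0.471 against 2.64).

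Most opposite-strand rows are noncoding, 153 being of the antisense type, but 7 are annotated as protein-coding. Cebpzos (102) was the highest of these, beside Cebpz (123), a gene of ribosome assembly with which it shares 171 bases. Others of the 7 were lower, with Wdr83os at 7.73, Slc7a6os at 3.65, Cdiptos at 1.82, Fancd2os at 0.653 and Brd3os at 0.184. In 6 coding pairs whose means summed to at least 1, the row was above its partner in 1 by mean normalized count, Slc7a6os, and in 2 per kb, Cebpzos as well. Among all 156 such pairs the share was 55.8% by mean normalized count and 79.5% per kb.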

How the data were processed

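Poly(A) RNA from mouse liver was made into strand-specific libraries with a directional kit and sequenced as short single-end reads. The authors mapped reads with HISAT2 2.1.0.13 to GRCm38, obtained gene counts from HTSeq-counts, with a strand setting that is not given in the sources used here, and fitted DESeq2. The signal deposited by the authors and used here is the mean normalized count of each gene, the mean over all 32 libraries of counts divided by size factors. It is the same in the 6 comparisons of the table for all 21880 rows. The table's other columns hold the authors' own comparisons (log2 fold changes, standard errors, Wald statistics, P values and adjusted P values of each knockout genotype against WT), and none of these was used, so no genotype is compared. Depth and spread per library are unknown.

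Positions, gene types, exon lengths and sequences were taken from GENCODE M21 (GRCm38), which held 21833 of the row identifiers and lacked 47. All 177 opposite-strand rows matched. Exon bases of a gene are the union over its transcripts, shared bases are those covered by exons on both strands, and per-kb values divide the mean by this length. Log2 ratios of means used a pseudocount of 0.1, those per kb used none, and both used pairs with a summed mean of at least 1. Rows named are those with a mean of at least 10, the 5 highest and 5 lowest ratios among pairs with a summed mean of at least 10, and Prox1os; other named rows were chosen after their values were seen, and a few rows the rule names are not reported here. Members and role groups were chosen with earlier results of these data known. Alternatives were other pseudocounts, minimums, overlaps and per-kb values. Calculations used Python 3.11.15, numpy 2.4.6, pandas 2.3.3 and scipy 1.17.1, figures used matplotlib 3.10.9, and the functions were tested on simulated data.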

Additional observations from a re-analysis of the deposited data

How the results depend on the processing

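No paired analysis was possible because the values are 1 mean per gene over all libraries, and leaving out replicates could not be run for the same reason. The median log2 ratio of opposite-strand row to partner was 0.84 over 156 pairs (95% interval over pairs −0.13 to 1.93, with pairs of 1 partner not independent). It was 2.41 for the 93 pairs with a summed mean of at least 10 and 2.74 per kb, where exon length enters by construction and no pseudocount was used, and stayed between 0.58 and 0.86 over all pairs and with pseudocounts of 0.01 and 1. The number of opposite-strand rows at or above the minimum was 120 at 1, 130 at 0.5 and 71 at 10. The row was above its partner in 87 of 156 pairs, 95 of all 177, 63 of 93 and, for names ending in os without a digit, 62 of 107. Among pairs with overlap it was above in 79 of 112 that share an exon base, 68 of 91 that share at least 100 bases and 83 of 138 whose gene bodies overlap. Of 76 named pairs, 8 had the row below its partner by mean normalized count and above it per kb, with log2 ratios per kb of 3.73 for Acss2os, 1.78 for Cebpzos, 0.73 for Igf1os, 2.13 for Arf4os, 1.42 for Zbtb11os1, 1.46 for Prox2os, 1.12 for Srrm4os and 2.24 for N4bp2os. No named pair changed order with another pseudocount. Depth per library is unknown, and rows with a mean under 1 rest on few reads, so that folds against them, as for Tbx3os2, Rsf1os1, Mettl5os and Hnf4aos, are imprecise.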
